A study of Drosophila melanogaster with 2 samples.

Results

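Rab proteins are small GTPases that mark membranes in the cell. Bound to GTP, a Rab sits on a vesicle or organelle and recruits the motors, tethers and fusion factors that move that membrane. Exchange factors (GEFs) load it with GTP, GTPase-activating proteins (GAPs) end the signal, and the GDP dissociation inhibitor returns the inactive protein to the cytosol. In flies, as in vertebrates, different Rabs serve the Golgi, early and late endosomes, recycling endosomes, lysosomes and secretory vesicles. The members described here are the protein-coding genes whose symbol is Rab or RabX followed by a number, with at most a letter suffix, in the FlyBase Release 6 annotation. There were 33 such genes among 13968 protein-coding genes on the chromosome arms. The regulators Rab3-GEF, Rab3-GAP and Rab3GAP1 share the symbol start but are no GTPases, and were left out. The members fell into 23 Rabs that carry the number of a vertebrate Rab, here called the conserved Rabs, 5 RabX genes (RabX1, RabX2, RabX4, RabX5 and RabX6), and 5 Rab9-like genes (Rab9D, Rab9Db, Rab9E, Rab9Fa and Rab9Fb), a separate set that lies on the X chromosome.

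The study mapped the genomic binding of Usf, a basic helix-loop-helix leucine zipper factor whose vertebrate relatives bind the E-box CACGTG, by ChIP-seq with an antibody against GFP per the sample descriptions. Its 1 group had 2 biological replicates, numbered 3 and 4, of Drosophila melanogaster embryos 0 to 16 hours old, both sexes together, of a transgenic strain that stably expresses Usf with GFP at its C terminus. The promoter that drives the fusion is not given in the labels. Both replicates were called against 1 control alignment, and no library without the fusion was analysed here. Whole embryos were used, so weak binding in many cells and strong binding in few cells cannot be told apart. On the genome build dm6, the authors' relaxed list of replicate 3 had 28459 peaks, that of replicate 4 had 29246, and that of the pooled reads had 21315. Relaxed lists also contain background. A stricter list, made by the authors with the irreproducible discovery rate (IDR) over the replicates, had 2767 peaks, which were the 2767 strongest pooled ones. Ranks below count from the strongest peak of a list, and the signal is the authors' value, whose scale is not stated. Read depth is unknown.

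Few Rab genes had a reproducible Usf-GFP peak. At 3 of 33 Rab genes (9.09%) the summit of an IDR peak was found 1 kb or less from a transcription start site (TSS), where 15.3% of all protein-coding genes had one. The 3 were Rab39, a Rab of lysosomes, Rab5, which governs the entry of endocytic vesicles into early endosomes, and Rab14, which acts between endosomes, Golgi and phagosomes. None of the 3 belongs to the RabX or Rab9-like genes. The share was not above that of all genes. The count turned on the limits used, with 6 of 33 at 2000 bp from a TSS (18.9% of all genes) and 7 of 33 in a pooled list 1.5 times as long (20.3% of all genes). For the conserved Rabs alone, the share was 13.0% against 15.3%, and the direction turned at 2000 bp (21.7% against 18.9%), without replicate 4 (17.4% against 15.1%) and in the longer list (26.1% against 20.3%).

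Weak peaks were more widespread, and their counts differed between the conserved Rabs and the other sets. A summit of the pooled relaxed list lay within 1 kb of a TSS at 20 of 33 Rab genes, or 60.6%, against 48.2% of all protein-coding genes. In the list of replicate 3 alone the shares were 60.6% against 54.8%. Replicate 4 alone showed no excess, with 54.5% against 55.4%. The conserved Rabs had a pooled relaxed summit at 18 of 23 genes (78.3%), the RabX genes at 2 of 5 and the Rab9-like genes at 0 of 5. At 2000 bp from a TSS the counts were 20 of 23 conserved Rabs and 3 of 5 RabX genes, against 61.8% of all coding genes. The Rab9-like genes Rab9D and Rab9Db also had a pooled summit at that distance. Genes are not replicates of a condition, so these differences were not tested. Of the 20 summits, 17 were below the IDR threshold. The median signal of the 20 was 37.4, below the 41.9 at all coding genes with a relaxed summit. Below, a pooled summit is called matched in a replicate when a summit of that list lay within 100 bp. A gene without a match can have another summit within 1 kb in that list.

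**Figure D1:**
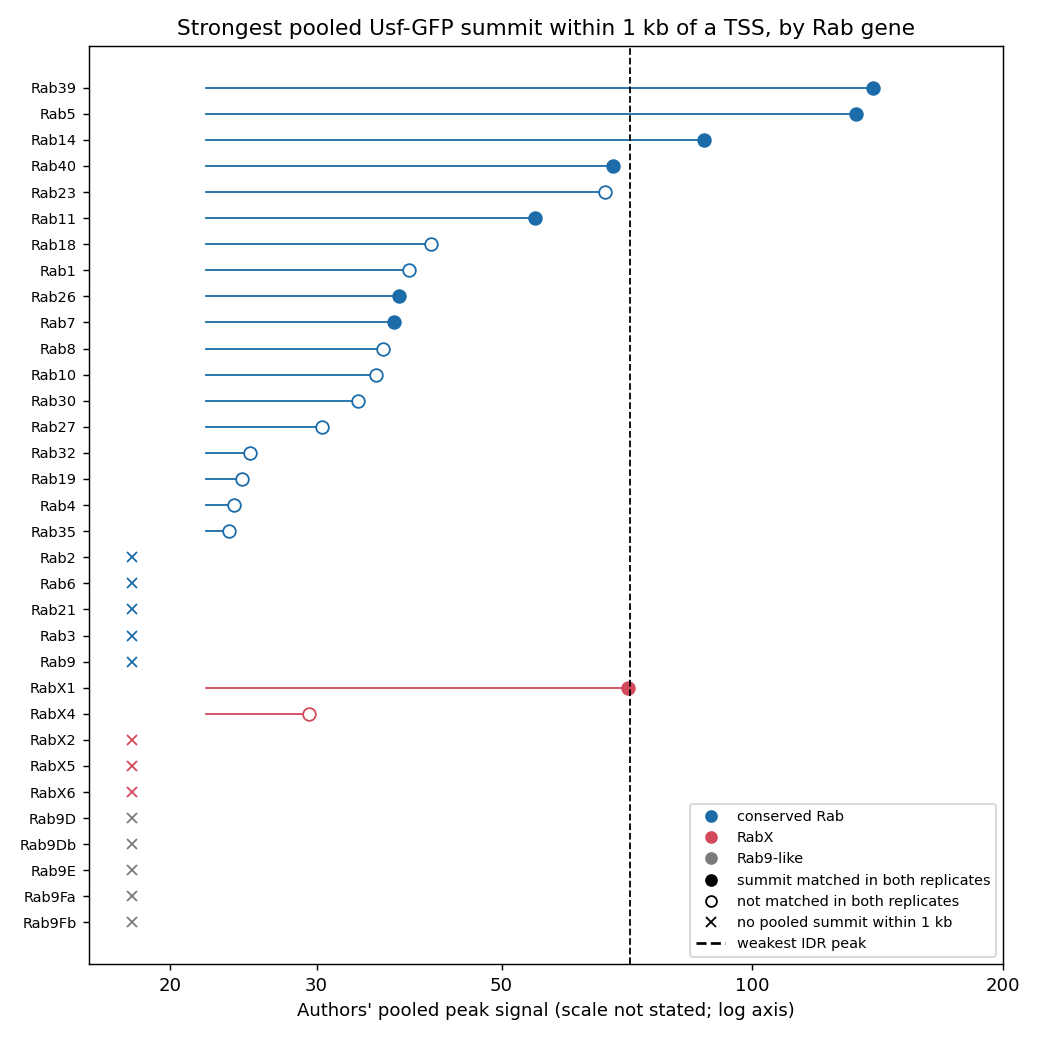
Authors' pooled peak signal (log axis) of the strongest summit within 1 kb of a TSS for each of the 33 Rab genes, grouped as conserved Rabs, RabX and Rab9-like genes. Filled points were matched in both replicates and crosses had no pooled summit, and only Rab39, Rab5 and Rab14 lie right of the dashed line at the weakest IDR peak.

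Among the early endosomal Rabs, Rab5 had a peak in an intron and Rab21 had none within 1 kb of a TSS. The Rab5 summit lay at 2L position 2363769, 265 bp upstream of the nearest of 6 annotated TSSs and inside the gene (2L, 2359142 to 2365273, minus strand). Its pooled signal was 133.1 (rank 1170), and the replicate lists gave 77.7 (rank 1041) and 54.4 (rank 1432). No other coding gene had a TSS within 1 kb. With only the first TSS of each gene counted, Rab5 lost the peak. The relaxed pooled list held 4 further summits within 1 kb of a Rab5 TSS, with signals from 26.7 to 38.2. Rab21, another early endosomal Rab, was within 1 kb of no summit in any list, and the nearest IDR summit lay 521916 bp away. A pooled relaxed summit lay within 2000 bp of a Rab21 TSS.

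Rab5 was also the single Rab gene with CACGTG within 100 bp of its strongest summit. The hexamer stood at 2363833 to 2363838 on 2L, 66 bp from the summit, in sequence annotated as intron. The same motif lay at 3.25% of the strongest summits of coding genes and at 2.46% of IDR summits, searched on both strands up to 100 bp to each side. It also fell 92 bp upstream of the first TSS of Rab14, outside that gene, in sequence annotated as a 5′ UTR, but 669 bp from the Rab14 summit. A TSS of l(2)34Fd lay within 1 kb of that site. Another copy, in a coding exon outside RabX4, was 112 bp from the weak RabX4 summit, with a TSS of Kaz also within 1 kb. The sequences below, read from the Release 6 genome in the orientation of the gene, show the summit region of Rab5 (chr2L:2363719-2363850, minus strand), the hexamer ahead of Rab14 (chr2L:14355039-14355068, plus strand) and the Rab14 summit (chr2L:14355672-14355772, plus strand), since 2 of the 3 IDR peaks lie there. Capitals mark CACGTG in the first and second sequence, and the summit base in the third.
Rab5 summit region: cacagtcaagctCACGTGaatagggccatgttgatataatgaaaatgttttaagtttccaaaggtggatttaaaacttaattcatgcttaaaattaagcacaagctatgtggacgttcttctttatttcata
Rab14 E-box: cgaagtccgcaaCACGTGcgccctctatcg
Rab14 summit: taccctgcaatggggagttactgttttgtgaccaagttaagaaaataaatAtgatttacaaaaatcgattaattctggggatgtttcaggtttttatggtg

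Both stretches at the summits are rich in A and T. The GC content up to 100 bp to each side of the summit was 29.4% at Rab5, 37.8% at Rab14 and 35.8% at Rab39. The median over the 20 strongest Rab summits was 40.3%, and over all IDR summits 34.3%.

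The recycling Rabs each had a pooled summit, from strong to barely listed. Rab14 (2L, 14355145 to 14358764, plus strand) had its summit in its own intron, 577 bp downstream of its first TSS, with a pooled signal of 87.5 (rank 2117). The replicates gave 46.8 (rank 2201) and 42.5 (rank 2078), so the ranks differed little. A TSS of l(2)34Fd lay within 1 kb of that summit, but the Rab14 TSS was closer. Rab11, the Rab of the recycling endosome, had its summit 20 bp upstream of its single TSS with a signal of 54.9 (rank 3802), and 25.1 (rank 5614) and 28.9 (rank 3549) in replicates 3 and 4. A separate IDR peak lay inside the Rab11 gene, in an intron 1873 bp downstream of the TSS, with a signal of 110.4, beyond the 1 kb limit. Rab4, which serves fast recycling, had 23.9 in a coding exon, with 16.0 (rank 17260) in replicate 3 and no match in replicate 4. Elsewhere within 1 kb of the Rab4 TSS, replicate 4 had a summit of 16.1 (rank 12589). Rab35 had 23.5, 55 bp upstream of its TSS, with no summit within 100 bp in either replicate list. Elsewhere within 1 kb of the Rab35 TSS, replicate 3 had a summit of 14.3 (rank 22314).

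Late endosomal and lysosomal Rabs ranged from the strongest Rab peak to none. The Rab39 summit (X, 7734618) had a pooled signal of 139.7 (rank 1079), and the replicates gave 67.8 (rank 1321) and 67.3 (rank 1034). It lay 305 bp upstream of the Rab39 TSS and 33 bp from a TSS of Pdp, the neighbouring gene for pyruvate dehydrogenase phosphatase, in sequence annotated as 5′ UTR. When each summit was given to the nearest coding gene alone, Rab39 had no peak. Rab7, which takes endosomes to fusion with lysosomes, had a signal of 37.2 (rank 6660), 27 bp upstream of its nearest TSS, with 16.1 (rank 16816) and 13.1 (rank 21033) in the replicates. Rab32, a Rab of lysosome-related organelles such as pigment granules, had 25.0 in a coding exon, matched in replicate 4 alone (rank 18045). Elsewhere within 1 kb of a Rab32 TSS, replicate 3 had a summit of 22.5 (rank 7210). IDR peaks of 521.8 and 106.3 lay downstream of Rab32 and outside the gene, 1906 and 1705 bp from its nearest TSS, with a TSS of the endosomal chaperone gene Rme-8 nearby. Rab9, which returns receptors to the Golgi, had no pooled summit within 1 kb and a weak one in replicate 4 (12.8, rank 21978).

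The Golgi and endoplasmic reticulum Rabs had weak peaks or none. Rab18, found on the endoplasmic reticulum and lipid droplets, led with 41.2 (rank 5607), but its summit was 761 bp upstream of its TSS and 93 bp from one of the ribosomal protein gene RpL35. Rab1, which acts from the endoplasmic reticulum to the Golgi, had 38.8 at 63 bp upstream, shared with AP-2sigma, a clathrin adaptor subunit gene. The Golgi Rabs Rab30 and Rab19 had 33.6 and 24.4. Each of these 4 was matched in replicate 3 and not in replicate 4, with replicate 3 signals of 29.0 for Rab18, 25.7 for Rab1, 23.9 for Rab30 and 25.0 for Rab19, at ranks from 4313 to 6318. Rab6 was in none of the lists, and Rab2 had 11.4 in replicate 4 alone (rank 28170).

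Secretory Rabs likewise stayed far below the IDR threshold, whose weakest peak had a signal of 71.3. Rab26, of secretory and synaptic vesicles, had 37.6 and was the single one of the 5 matched in both replicates, with 19.5 (rank 10276) and 13.9 (rank 18187). Rab8, which acts in exocytosis, had 36.1, with 3 further summits within 1 kb of its TSSs. The strongest of these had 33.2, at 6 bp upstream. Rab10, of polarised secretion, had 35.3 and Rab27, of secretory vesicles, 30.5. The summits of Rab8, Rab10 and Rab27 were matched in replicate 3 alone, with 23.2 (rank 6710), 18.3 (rank 12146) and 26.5 (rank 5046). Elsewhere within 1 kb of a TSS, replicate 4 had 26.8 (rank 4029) for Rab8 and 11.7 (rank 26600) for Rab10. Rab3, the Rab of synaptic vesicle release, had no summit within 1 kb in any list. An IDR peak of 222.7 lay 2030 bp upstream of Rab3, within 1 kb of CG7220 and Daao1.

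Below the threshold came RabX1, Rab40 and Rab23. RabX1 had a signal of 71.0 at pooled rank 2785, 18 places below the last IDR peak, and 30.6 (rank 3956) and 38.4 (rank 2402) in replicates 3 and 4. Its summit lay 178 bp upstream of its TSS and 65 bp from one of mi. Rab40, a Rab with a SOCS box, had 68.1 (rank 2930) at 51 bp upstream, with 31.6 in each replicate (ranks 3788 and 3122). Rab23, which acts in planar cell polarity, had 66.5 (rank 3023), from 48.1 (rank 2122) in replicate 3 and no summit within 100 bp in replicate 4. Elsewhere within 1 kb of the Rab23 TSS, replicate 4 had a summit of 14.8 (rank 15781). The pooled Rab23 summit was 85 bp from a TSS of plx, which encodes a protein with the domain of Rab GAPs, and 336 bp from that of Rab23. An IDR peak of 77.1 lay in an intron of Rab23, 2259 bp downstream of the TSS. The other RabX gene with a summit, RabX4, had 29.4 in sequence annotated as a coding exon, 622 bp upstream of its TSS. Replicate 3 gave 15.7 (rank 17833) and replicate 4 no match. A TSS of Kaz also lay within 1 kb of the RabX4 summit.

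**Figure D2:**
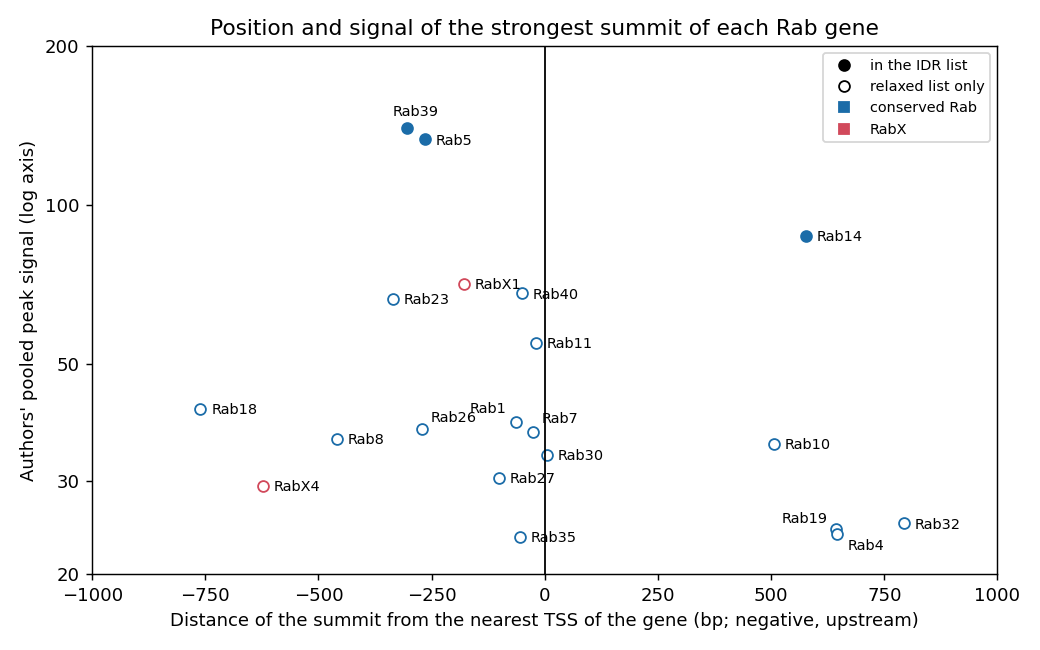
Distance in bp of the strongest pooled summit from the nearest TSS of its gene (negative, upstream) against the authors' pooled signal (log axis), for the 20 Rab genes with one. The 2 highest points, Rab39 and Rab5, lie 305 and 265 bp upstream, and 14 of the 20 points lie upstream.

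Position near the TSS was like that of other genes. The strongest Rab summit lay a median of 288.5 bp from the nearest TSS of its gene (range 5 to 794 bp), against 265 bp for all coding genes with a relaxed summit. Within 200 bp lay 8 of the 20, where the share for all such genes was 40.2%. Upstream of the TSS were 14 of 20, against 71.9%. For 13 of 20 the summit was also 1 kb or less from the start of another coding gene (51.3% for all genes), and in 6 of 20 that other TSS was the closer one (25.0% for all genes). Those 6 were Rab39, Rab18, Rab8, Rab27, Rab23 and RabX1. Of the 20 summits, 7 were annotated as intergenic, 7 as intron, 3 as 5′ UTR and 3 as coding exon. The coding exon summits, of Rab32, Rab4 and RabX4, had signals from 23.9 to 29.4 and GC contents from 51.2% to 65.7%.

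The conserved Rabs also differed from the RabX and Rab9-like genes in how their promoters are annotated. Conserved Rabs had a mean of 1.87 TSSs per gene and a median length of 3268 bp, and 9 of them had more than 1 TSS. Each of the 10 RabX and Rab9-like genes had 1 TSS, and the median lengths were 1435 and 878 bp. More TSSs give a gene more sequence in which a summit can fall. Among genes with 1 TSS, 10 of 14 conserved Rabs and 2 of 5 RabX genes had a pooled summit, where 40.8% of all such coding genes had one. The part of TSS number in the difference was not tested further. RabX2, RabX5 and RabX6 had no summit within 1 kb in any list, although an IDR peak of 367.0 lay 1381 bp from the RabX5 TSS, within 1 kb of the ribosomal protein gene RpL23A.

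Most Rab9-like genes lay partly in repeated sequence, where short reads can be hard to place. Of the 50-base words within 1 kb of the TSS, 43.8% to 49.4% occurred elsewhere on the arms for Rab9D, Rab9Db, Rab9E and Rab9Fa, 0.359% for Rab9Fb and 10.0% for RabX2. The share was 0 for every other member, all conserved Rabs included. No Rab9-like gene had a summit within 1 kb of its TSS in any list, Rab9Fb included. Rab9D and Rab9Db had a pooled relaxed summit within 2000 bp. How the authors placed such reads is not given in the sources used here, and the part of repeats in the missing peaks was not tested.

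**Figure D3:**
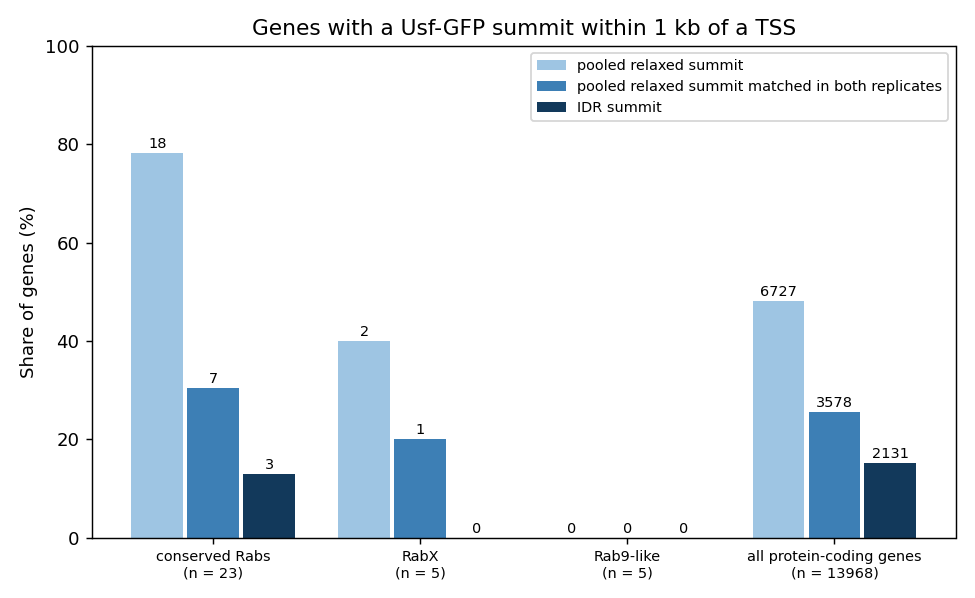
Share of genes (%, linear axis from 0) with a pooled relaxed summit, one matched within 100 bp in both replicate lists, and an IDR summit, each 1 kb or less from a TSS, with gene counts above the bars. Conserved Rabs stand at 78.3% against 48.2% of all coding genes in the palest bars, 30.4% against 25.6% in the middle ones and 13.0% against 15.3% in the darkest.

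The replicates gave similar numbers of Rab genes, and most of these genes were in both lists. Replicate 3 had a summit within 1 kb at 20 of 33 Rab genes (60.6%, against 54.8% of all coding genes). Replicate 4 had one at 18 of 33 (54.5%, against 55.4% of all coding genes). In both lists stood 16 (48.5%, against 39.8% of all coding genes), with the better rank in replicate 3 for 8 and in replicate 4 for 8. Rab1, Rab27, Rab35 and RabX4 had a summit in replicate 3 alone, and Rab2 and Rab9 in replicate 4 alone. Those shares were 12.1% and 6.06%, against 15.0% and 15.6% of all coding genes. In none of the relaxed lists stood 11 members, which were Rab3, Rab6, Rab21, RabX2, RabX5, RabX6 and the 5 Rab9-like genes. Required to lie within 100 bp of the pooled summit, a match was found in both lists for 8 of 20, in replicate 3 alone for 10, in replicate 4 alone for 1 and in neither for 1. For all coding genes with a pooled summit the shares were 53.2%, 21.4%, 19.1% and 6.35%. The 8 matched in both were Rab39, Rab5, Rab14, RabX1, Rab40, Rab11, Rab26 and Rab7, and the first 3 of these were the IDR genes. Counted over all genes of each set, 24.2% of Rab genes and 25.6% of coding genes had such a matched summit.

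**Figure D4:**
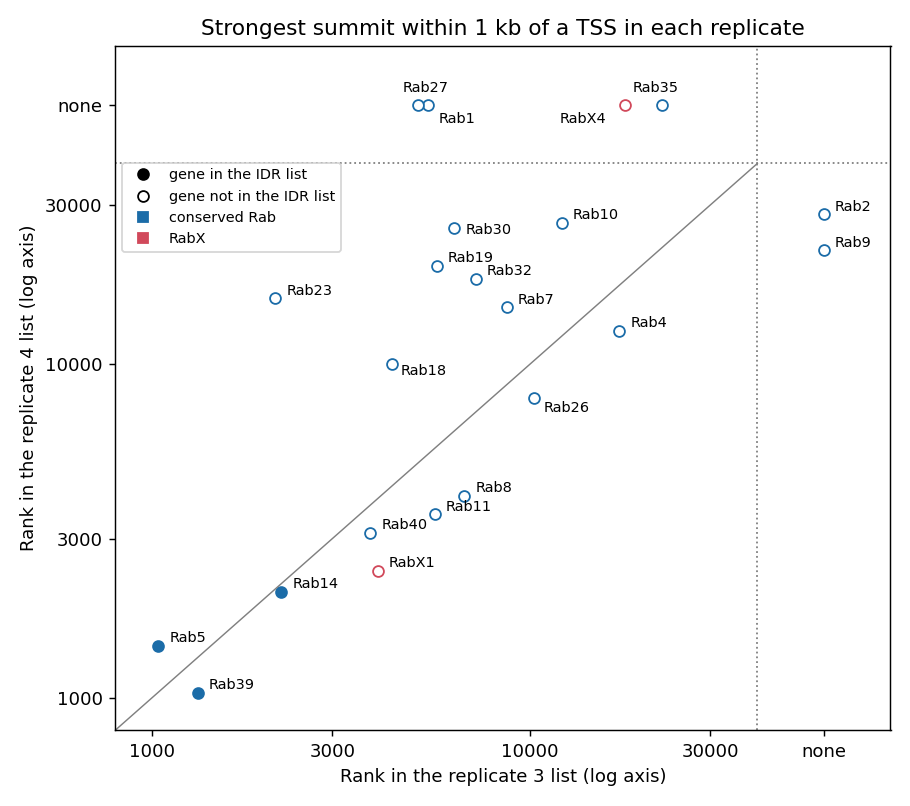
Rank of the strongest summit within 1 kb of a TSS in the replicate 3 list against that in the replicate 4 list (log axes, lower is stronger), for Rab genes with a summit in at least 1 list, with genes absent from a list at "none". Rab5, Rab39 and Rab14 sit at the strong end in both lists, while 4 genes have no replicate 4 summit and 2 no replicate 3 summit.

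Some Rab promoters held the palindrome TATCGATA, which the choice of genes did not use. It is the core of the DNA replication-related element (DRE) of fly housekeeping promoters, which the factor Dref binds. Searched up to 100 bp to each side of a TSS, on both strands, it was present at 11 of 33 Rab genes (33.3%), against 8.48% of all coding genes, and 10 of the 11 were conserved Rabs (43.5% of that set). The exception was RabX6. Rab genes had a mean of 1.61 TSSs, against 1.41 for all coding genes, so more sequence was searched per Rab gene. Counted per TSS, TATCGATA was at 22.6% of Rab TSSs, against 6.44% of the TSSs of all coding genes. Of these 11 genes 8 had a pooled summit and 1, Rab14, an IDR summit. Within 100 bp of the strongest summit TATCGATA was present at 5 of 20 Rab genes, against 3.98% of the strongest summits of coding genes and 2.71% of IDR summits. The shorter CGATAG, which can overlap TATCGATA, was at 8 of 20 against 11.4% and 8.38%. These shares were not tested. The 5 summits with the element were below the IDR threshold, with signals of 68.1 for Rab40, 37.2 for Rab7, 33.6 for Rab30, 30.5 for Rab27 and 23.5 for Rab35. In these 5 the site lay between 8 and 66 bp upstream of the TSS and between 13 and 48 bp from the summit. The summits of Rab40 and Rab7 were matched in both replicates, those of Rab30 and Rab27 in replicate 3 alone and that of Rab35 in neither. All but Rab35 also had another coding TSS within 1 kb of the summit, at 13 bp for Rab27 (mei-38). A motif match is a description of sequence and shows neither binding of Dref nor a cause of the peak.

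The 30 bases around each of these sites are shown because they hold the element that these 5 promoters have in common, with TATCGATA in capitals and each read on the strand of the gene (dm6, chrX:12463111-12463140 for Rab40, chr3R:23992980-23993009 for Rab7, chr2L:7032635-7032664 for Rab30, chrX:1477026-1477055 for Rab27 and chrX:20159866-20159895 for Rab35).
Rab40: tatcgatggctTATCGATAtgcgcaaacta
Rab7: cacgactgcacTATCGATAaccagtactga
Rab30: aaacgtcgatcTATCGATAccgagaaaaac
Rab27: ctcgcgatactTATCGATAgctctgcgcgc
Rab35: ctatcctaaacTATCGATAgcataaacatc

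The motifs GGTCACAC and ACAGTG were also searched on both strands, and neither stood within 100 bp of the strongest summit of a Rab gene. GGTCACAC, part of a core promoter motif of housekeeping genes, was at 0 of these 20 summits (3.01% for coding genes), while 5 of 33 Rab genes (15.2%) had it within 100 bp of a TSS, against 7.55% of all coding genes. ACAGTG was at 0 of 20, against 12.9% for coding genes and 19.2% of IDR summits, and near a TSS at 6 of 33 Rab genes (18.2%), against 12.7%. Counted per TSS, the shares were closer, with 9.43% against 5.68% for GGTCACAC and 11.3% against 9.72% for ACAGTG. A weaker Rab8 summit, with a signal of 22.7 and 345 bp from a TSS, did have ACAGTG. Another Rab8 summit that was not the strongest, with 33.2 and 6 bp upstream of a TSS, had TATCGATA and CGATAG.

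The genes listed as acting on Rabs or as effectors and tethers had IDR peaks within 1 kb at a higher share than the Rabs did. The Rab share was 9.09%, or 13.0% for the conserved Rabs. The Rab count moved at other limits, to 6 of 33 at 2000 bp and 7 of 33 in the longer pooled list. The lists of related genes were not recomputed at those limits. Of 70 matched genes of the Rab cycle, 18 had an IDR summit within 1 kb (25.7%, against the 15.3% of all coding genes) and 51 a pooled one (72.9% against 48.2%). Without the effectors and tethers, these counts were 10 of 36 (27.8%) and 26 of 36 (72.2%). Among 4 genes of prenylation and membrane extraction, RabGGTb, a subunit of the enzyme that attaches the lipid anchor, had 121.6 and temp 100.4, while Gdi, the GDP dissociation inhibitor, had a weak summit of 45.8 and the escort protein gene Rep none. Of 20 genes listed as GEFs 3 had an IDR summit, among them Mon1 of the Rab7 exchange factor with 178.6 and spri with 118.4. One of the 20, stmA, is no GEF and is left out of the sums above, and without it the count was 3 of 19. Of 13 genes listed as GAPs 5 had one, led by TBC1d7 with 167.4, sky with 162.2, Rab3GAP1 with 145.9 and TBC1D23 with 98.2. The lists were written from textbook knowledge, and whether each listed gene acts on a Rab was not examined here. Rab3-GEF had no pooled summit and Rab3-GAP one of 30.7. Of 34 effectors and tethers 8 had one, led by Golgin97 with 248.8 (979 bp from its TSS, with a TSS of cnn also within 1 kb), the Rab5 effector gene Rbsn-5 with 212.5, the exocyst subunit gene Exo84 with 154.2 and GCC185 with 134.8. The last 3 of these peaks also had another coding gene within 1 kb, which was PAPLA1 for Rbsn-5, Vps2 for Exo84 and KLHL18 for GCC185. Of the other IDR peaks named here, those of RabGGTb (756 bp from its TSS), temp, Mon1, TBC1d7, Rab3GAP1 and TBC1D23 also had another coding TSS within 1 kb. Those of spri and sky had none.

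Other small GTPases had an IDR summit at 9 of 33 genes (27.3%), where the equally many Rab genes had 3. The strongest were the Rac-like Mtl with 871.1, the Golgi GTPase Arl1 with 584.1, RhoBTB with 183.8 and Ric with 91.9. The Mtl peak lay within 1 kb of CG5611 and the Arl1 peak within 1 kb of brm. The RhoBTB and Ric peaks lay within 1 kb of Ide and Asph. Neither of these differences between lists was tested or recomputed at other limits, and neighbouring genes that share a peak are not independent. Arl5, with 83.6, had its IDR peak 2847 bp from the nearest TSS of Rab19.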

How the data were processed

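The deposited files were narrowPeak lists. The authors' signal of each peak and its summit offset were used as deposited, per the deposited sample notes, which name the pooled, replicate and IDR lists and the single control alignment. No source used here gives the aligner, peak caller, IDR threshold or scale of the signal, so signals were compared within a list. Only the 4 lists on dm6 were used. The 4 dm3 lists were not used here, since the genome and the Ensembl 115 annotation (BDGP 6.54) share dm6 coordinates. A gene had a summit when one lay within 1000 bp of any of its TSSs, and summits matched between lists within 100 bp. Motifs were searched on both strands up to 100 bp to each side. Python 3.11.15 was used, and the assignment was tested on simulated data. With 2 samples in 1 group no statistical test was made, and counts are set beside those of all 13968 coding genes. Members and lists were chosen with earlier results of these data known. All Rab genes are accounted for. Of each list of related genes, the 4 members with the highest IDR signal are named, with Rab3-GEF for its symbol, and 1 gene that the rule would name is not reported here. Gdi, Rep, Rab3-GAP and the neighbours of summits other than the IDR summits of Rab genes were named after their values were seen. Of 108 symbols in those lists, 104 matched a gene. Alternatives of distance, list, replicate, assignment, TSS choice and window were recomputed for the Rab genes, not for the lists of related genes.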

Additional observations from a re-analysis of the deposited data

How the results depend on the processing

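Of 53 recomputed values 40 stayed close to the reported one (counts within 1.5 times) and 13 moved. IDR counts moved to 6 Rab genes, 5 conserved and 1 RabX at 2000 bp, and to 7, 6 and 1 in the pooled list 1.5 times as long, an alternative chosen after seeing the data. With 1 replicate's strongest 2767 peaks in place of the IDR list, the counts ranged from 4 to 4 for all Rab genes, 3 to 4 for conserved Rabs and 0 to 1 for RabX, where RabX1 came in without replicate 3 and Rab23 without replicate 4. Relaxed counts in 1 replicate, also chosen after seeing the data, ran from 18 to 20, 17 to 18 and 1 to 2. The RabX relaxed count was 1 at 500 bp. The nearest in place of the strongest summit lay a median of 155 bp from the TSS. Searched to 200 bp on each side, CACGTG was at 2 and ACAGTG at 4 Rab summits, and to 50 bp CACGTG was at 0. Weak relaxed summits limit what these lists show. No paired analysis was possible because there was 1 group and no test.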
